A study of Homo sapiens with 12 samples.

Results

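The genes described here carry out protein lipoylation or encode the enzymes that depend on it, and include genes tied to cuproptosis, the form of cell death set off by copper in mitochondria. They are 10 genes chosen by name, FDX1, LIAS, LIPT1, GCSH, DLD, DLAT, DLST, DBT, PDHA1 and PDHB, of the 14866 genes listed for each library. The choice gives no threshold, but it was made with results of these libraries known. The calls below therefore describe these genes and are not independent support for a change in the pathway.

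SHI-1, a human acute myeloid leukemia cell line that carries an MLL-AF6 fusion, was exposed for 16 h to 1 of 4 conditions. These were DMSO, the solvent control; DSF, which is 0.3 µM disulfiram with 1 µM copper (Cu); NSM, which is 5 µM niclosamide; and DSF+NSM, which is both. Each group held 3 libraries from independent experiments, so all 12 come from 1 cell line. Whether Cu was also added to DMSO and NSM cultures is not given in the sources used here, so disulfiram and Cu cannot be told apart. Expression is given as the deposited normalized count, an estimated read count per gene divided by a factor for its library. In bulk RNA of this kind, fewer cells with a transcript and less of it per cell cannot be told apart.

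Lipoic acid is a sulfur-containing cofactor held on a lysine of a few mitochondrial proteins, where it swings reaction intermediates between active sites. LIAS, an iron-sulfur enzyme that draws electrons from the ferredoxin FDX1, inserts the sulfur atoms on the H protein of glycine cleavage, encoded by GCSH, and LIPT1 moves the finished group to the E2 subunits. Those E2 subunits belong to the pyruvate (DLAT), 2-oxoglutarate (DLST) and branched-chain 2-oxoacid (DBT) dehydrogenases. PDHA1 and PDHB form the E1 of pyruvate dehydrogenase, and DLD is the E3 that the complexes share. Copper is known to bind lipoylated proteins and to make them aggregate, and disulfiram carries copper into cells. Niclosamide is known as an uncoupler of mitochondria.

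The transcript of GCSH was lower in all 9 drug-treated libraries than in any DMSO library, and it fell most in DSF+NSM, to 0.127 of its level in DMSO. DLAT fell in NSM and DSF+NSM, LIPT1 fell in DSF+NSM, PDHA1 fell in NSM and LIAS rose in NSM. FDX1, DLD, DLST, DBT and PDHB passed the test in none of the 3 comparisons with DMSO. Changes are log2 fold changes of normalized count + 1 from limma with their standard error (SE), and a call means a p under 0.05 after Benjamini-Hochberg adjustment over 13502 genes.

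The libraries were not equally alike. Their normalized counts summed to 14.0 to 25.6 M, with an estimated 10.2 to 19.0 M reads. NSM replicate 3 had a rank correlation of 0.939 and 0.950 with the rest of its group, against 0.980 to 0.996 in the other groups and between NSM replicates 1 and 2. All 10 myeloid markers were listed above 0 in every library, with summed levels of 66061 to 74786 in DMSO, 43831 to 50361 with DSF, 25052 to 35685 with NSM and 32075 to 34292 with both drugs. Most of each sum was MPO, at a mean of 58058, 31892, 16981 and 21249 in that order, so the sums mainly follow that gene. Of the 10 markers, 2 were called higher and 1 lower with DSF, and 3 higher and 4 lower with NSM. With both drugs 2 were called higher and 2 lower. Of all genes 17.8%, 49.1% and 52.8% were called in these comparisons. Transcripts of 8 B-lineage genes, a list added after the values were seen, summed to 943.9 in DSF+NSM replicate 1 and 284.5 in NSM replicate 2, against 18.3 to 44.5 in the other libraries. Calls for the 10 genes are given with and without these 3 libraries where they differed, and those of the gene lists as counts.

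**Figure D1:**
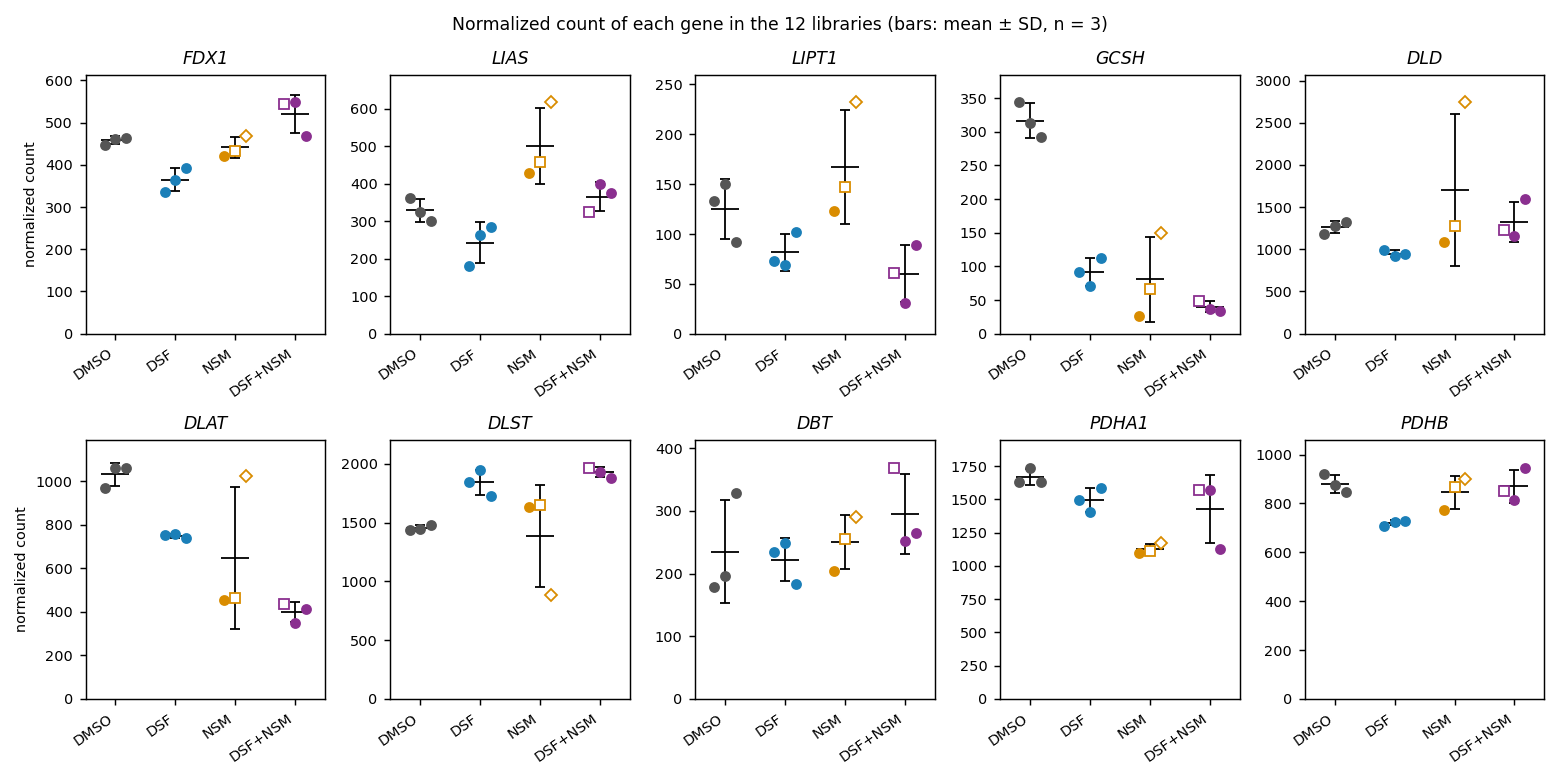
Normalized count (vertical axes, linear from 0) of each of the 10 genes in the 12 libraries, by group, with mean and SD over 3 libraries. Open diamonds are NSM replicate 3, and open squares are NSM replicate 2 and DSF+NSM replicate 1, which hold B-lineage transcripts. GCSH is lower in every treated library than in DMSO, and NSM replicate 3 stands far above the other NSM libraries for DLD and DLAT and far below them for DLST.

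GCSH encodes the H protein, the small carrier on which lipoic acid is completed. Its normalized counts were 344, 313 and 292 in DMSO, 91.4, 70.6 and 112 in DSF, 26.5, 65.9 and 150 in NSM, and 49.0, 37.1 and 33.3 in DSF+NSM. No treated library reached the lowest DMSO library, and the DSF+NSM libraries were all below those of DSF. The log2 fold change against DMSO was −1.80 ± 0.45 in DSF (adjusted p = 0.0183), −2.28 ± 0.45 in NSM (0.00131) and −2.98 ± 0.45 in DSF+NSM (0.000157). DSF+NSM was lower than DSF by −1.17 ± 0.45, with 95% limits of −2.16 and −0.19 and an adjusted p of 0.0535, so this difference was not called. It was called without NSM replicate 1 or 3 (0.00632 and 0.00209). The DSF call was lost when DMSO replicate 1 or 2 or DSF replicate 1 or 2 was left out (adjusted p = 0.0581 to 0.0890), although the change stayed between −1.63 and −1.96. Without NSM replicate 3, the highest NSM library, the fall in NSM was −2.88 ± 0.31. DSF+NSM was below NSM by −0.70 ± 0.45 (0.245), by −1.32 without NSM replicate 1, when it was called (0.00772), and by −0.091 without NSM replicate 3 (0.830).

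GCSH lies on chromosome 16 (GRCh38, GENCODE 44, positions 81081945 to 81096395, minus strand) and has 6 pseudogenes in RefSeq. In that annotation its exons share 442 and 430 bases with 2 unnamed protein-coding genes on the same strand, so the counting could have split its reads. Its retrocopy GCSHP3, which has a row of its own and was looked up after the GCSH values were seen, stood at 53.0, 52.9 and 32.3 in DMSO and at 10.5, 17.0 and 15.5 in DSF+NSM. That is a fall of −1.61 (adjusted p = 0.0203), at a level far below that of GCSH. In NSM the retrocopy stood at 9.82, 28.1 and 67.8, with NSM replicate 3 highest, as for GCSH. Whether reads passed between the gene and its copy was not tested.

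DLAT encodes the lipoylated E2 of pyruvate dehydrogenase. Its normalized counts were 969, 1064 and 1064 in DMSO, 753, 756 and 741 in DSF, 456, 462 and 1024 in NSM, and 436, 351 and 415 in DSF+NSM. All DSF libraries were below all DMSO libraries, and all DSF+NSM libraries were below all others. In NSM, replicates 1 and 2 lay near DSF+NSM and replicate 3 lay within the DMSO range. The fall was −0.78 ± 0.25 in NSM (adjusted p = 0.0213) and −1.37 ± 0.25 in DSF+NSM (0.000613), and DSF+NSM was below DSF by −0.91 ± 0.25 (0.0110). The change of −0.46 ± 0.25 in DSF was not called (0.230). Nor was the difference of −0.59 ± 0.25 between DSF+NSM and NSM (0.0817), which became −0.79 and −0.77 and was called without NSM replicate 1 or 2 (0.0285 and 0.0392), and became −0.20 without NSM replicate 3 (0.146). The NSM call was lost without DMSO replicate 2 or 3 or without NSM replicate 1 or 2, with changes of −0.58 to −0.76 and adjusted p from 0.0604 to 0.0860. Without NSM replicate 3 the fall in NSM was −1.17 ± 0.11.

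The position of NSM replicate 3 for DLAT was shared by DLD, so that the ratio of the pair within a library did not set it apart. DLD encodes dihydrolipoamide dehydrogenase, the E3 that reoxidizes the lipoyl group. Its normalized counts were 1187, 1275 and 1328 in DMSO, 990, 920 and 940 in DSF, 1091, 1279 and 2742 in NSM, and 1227, 1160 and 1598 in DSF+NSM. The ratio of DLAT to DLD was 0.817, 0.834 and 0.801 in DMSO, 0.761, 0.822 and 0.789 in DSF, 0.418, 0.361 and 0.373 in NSM, and 0.355, 0.302 and 0.260 in DSF+NSM. All 6 libraries with NSM were thus below all 6 without it. Such ratios do not depend on how a library was scaled, and the pairs were chosen after the values were seen, so they carry no test. The ratio of DLAT to PDHB, its partner in the same complex, averaged 1.18 ± 0.107 in DMSO, 1.04 ± 0.0237 in DSF and 0.460 ± 0.0453 in DSF+NSM (SD, n = 3). In NSM it was 0.590 and 0.534 in replicates 1 and 2 and 1.14 in replicate 3. The ratio of DLAT to PDHA1, also of that complex, was 0.42, 0.41 and 0.88 in NSM replicates 1, 2 and 3. In DMSO that ratio was 0.59 to 0.65, so NSM replicate 3 lay above it. DLD itself was called in no comparison of the 12 libraries, with changes against DMSO of −0.41 ± 0.27 with DSF, 0.31 ± 0.27 with NSM and 0.06 ± 0.27 with both drugs. The change with NSM was −0.096 when NSM replicate 3 was left out.

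**Figure D2:**
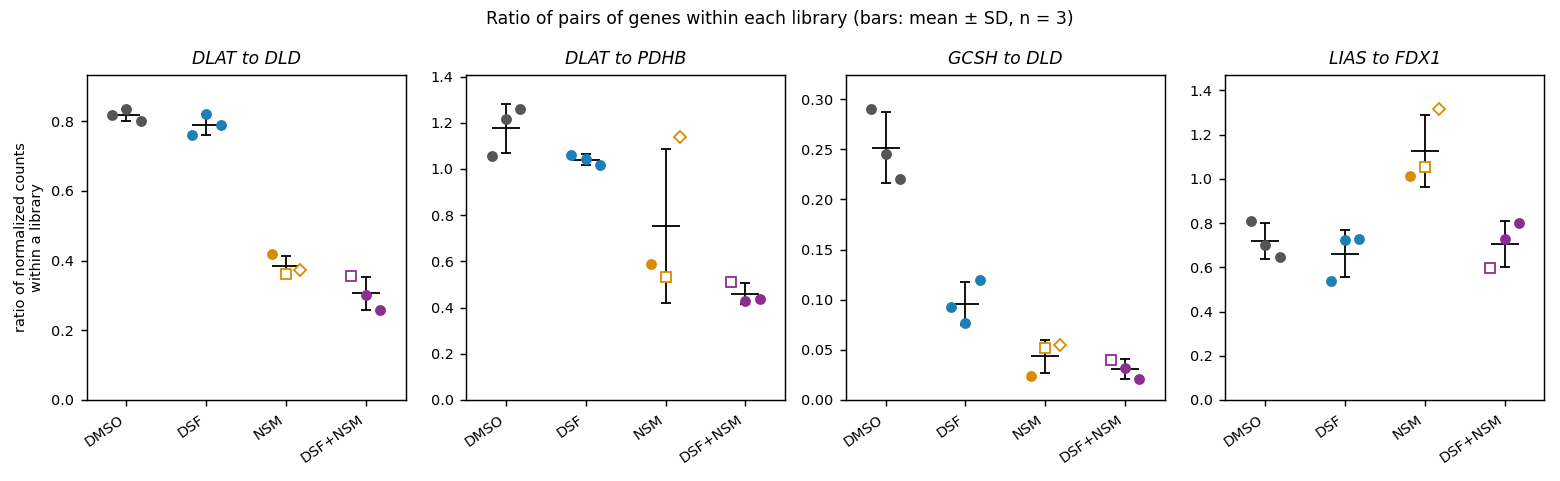
Ratio of the normalized counts of 2 genes within each library (vertical axes, linear from 0), by group, with mean and SD over 3 libraries; symbols as in the plot of normalized counts. DLAT to DLD is 0.260 to 0.418 in the 6 libraries with NSM and 0.761 to 0.834 in the others, and LIAS to FDX1 is above 1 only in the 3 NSM libraries.

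The letters ahead of the starts of GCSH and DLAT, the genes with the 2 largest falls, are shown with those of FDX1, which did not fall with them, because these 3 windows overlap no annotated exon. They are the 250 bases before the RefSeq start on GRCh38.p14, read 5′ to 3′ on the strand of the gene, at chr16:81096396-81096645 for GCSH, chr11:112025158-112025407 for DLAT and chr11:110429698-110429947 for FDX1. Capitals mark a match to a motif searched for.
GCSH: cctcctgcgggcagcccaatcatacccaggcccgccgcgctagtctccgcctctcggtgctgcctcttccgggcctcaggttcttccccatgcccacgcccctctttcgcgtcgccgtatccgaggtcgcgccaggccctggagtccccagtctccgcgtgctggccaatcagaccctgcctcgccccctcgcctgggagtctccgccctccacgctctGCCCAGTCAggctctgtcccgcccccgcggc
DLAT: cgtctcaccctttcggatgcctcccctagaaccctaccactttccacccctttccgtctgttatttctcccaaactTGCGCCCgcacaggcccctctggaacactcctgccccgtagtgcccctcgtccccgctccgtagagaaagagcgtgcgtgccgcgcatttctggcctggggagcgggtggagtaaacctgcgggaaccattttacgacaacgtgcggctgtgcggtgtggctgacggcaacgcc
FDX1: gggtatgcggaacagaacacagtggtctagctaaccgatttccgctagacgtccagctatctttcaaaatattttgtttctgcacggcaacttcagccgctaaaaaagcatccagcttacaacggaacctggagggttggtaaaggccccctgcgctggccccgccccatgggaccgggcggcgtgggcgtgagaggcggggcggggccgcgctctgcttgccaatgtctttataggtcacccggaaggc
The capitals for GCSH are the antioxidant response element core TGACNNNGC on the opposite strand, which 13.3% of 35116 RefSeq promoter windows hold on either strand. The capitals for DLAT are a metal response element core, TGCGCNC, which 20.0% of all windows and 5 of the 11 windows of these genes hold. Those 5 belong to LIPT1, DLD, DLAT and DLST, because DLD has 2 windows that overlap and hold the same match. FDX1 held none of the 7 motifs searched, and the heat shock element core GAANNTTC (6.77% of all windows) and the ATF4 element TGATGNAA (3.62%) were in none of the 11. The core TGCACNC (12.1%) was in the window of PDHB, the NRF1 element GCGCATGC (3.05%) in 1 window of DLD, and the ERR element AAGGTCA (3.92%) in that of LIPT1. Neither motif shown is rare among promoters, and a match is a run of letters, not a binding site.

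FDX1, the ferredoxin that passes electrons to LIAS and that copper ionophores are known to engage, lay below DMSO in DSF and above it in DSF+NSM. Its normalized counts were 448, 462 and 465 in DMSO, 337, 365 and 391 in DSF, 422, 433 and 469 in NSM, and 544, 548 and 468 in DSF+NSM. The DSF libraries were all below DMSO and the DSF+NSM libraries all above it, the lowest of the latter by a narrow margin. Against DMSO the changes were not called, at −0.33 ± 0.13 in DSF (adjusted p = 0.0933), −0.06 ± 0.13 in NSM (0.744) and 0.18 ± 0.13 in DSF+NSM (0.262). DSF+NSM exceeded DSF by 0.51 ± 0.13 (0.00666), or 42.6%. The interaction, the change with both drugs less the summed changes with DSF and with NSM, was 0.57 ± 0.18 (0.0367), and FDX1 was the 1 gene of the 10 called in it. That call was lost in 9 of the 12 fits that left out 1 library (adjusted p of 0.0616 or more), and held without DSF replicate 3, NSM replicate 3 or DSF+NSM replicate 3. With every library scaled to the same sum, FDX1 in DSF+NSM was lower than in DMSO, by −0.60, and lower than in DSF, by −0.17. Its direction there thus changed with that scaling, the 1 of 23 alternatives that changed the sign in either comparison.

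LIAS, the lipoyl synthase, was highest in NSM. Its normalized counts were 362, 324 and 300 in DMSO, 181, 264 and 284 in DSF, 427, 457 and 617 in NSM, and 324, 399 and 374 in DSF+NSM. Each NSM library was above every library of the other groups, and each DSF library was below every DMSO library. LIAS rose in NSM by 0.59 ± 0.20 (adjusted p = 0.0270), and DSF+NSM exceeded DSF by 0.61 ± 0.20 (0.0266). The former call was lost without DMSO replicate 2 or 3 (0.0710 and 0.0922), the latter without DSF replicate 1 or DSF+NSM replicate 2 or 3 (0.130, 0.0901 and 0.0640). With equal sums the change in NSM was 0.32 and was not called (0.205), and DSF+NSM lay below DSF (−0.076). The ratio of LIAS to FDX1 was 0.718 ± 0.0821 in DMSO, 0.662 ± 0.108 with DSF, 1.13 ± 0.163 with NSM and 0.707 ± 0.104 with both drugs (SD, n = 3). The NSM libraries, at 1.01 to 1.31, did not overlap those of any other group.

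LIPT1, the transferase that hands lipoate to the E2 subunits, had the lowest normalized counts of the 10 in DMSO. It stood at 133, 150 and 92.0 in DMSO, 73.1, 68.9 and 102 in DSF, 123, 147 and 232 in NSM, and 61.2, 30.8 and 88.5 in DSF+NSM. The DSF+NSM libraries lay below all DMSO and all NSM libraries, though their own spread was wide (SD 28.8 around a mean of 60.2). LIPT1 fell in DSF+NSM by −1.14 ± 0.36 against DMSO (adjusted p = 0.0190) and was lower by −1.53 ± 0.36 than in NSM (0.00569). The fall against DMSO was not called without DMSO replicate 1 or 2 or DSF+NSM replicate 2, with adjusted p from 0.0587 to 0.0887 and changes of −0.73 to −1.08. The difference from NSM stayed called under every alternative run (adjusted p of 0.0404 or lower). The gene shares 262 bases of exon with MITD1 on the opposite strand and 180 with another gene on its own strand. On the opposite strand DLAT shares 1004 bases with PIH1D2, and PDHA1 shares 956 with MAP3K15. DLD, PDHB and DBT share 360 or fewer with any 1 gene, also on the opposite strand. Whether the counting used strand is not given in the sources used here.

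DLST, the lipoylated E2 of the 2-oxoglutarate dehydrogenase, did not follow DLAT. Its normalized counts were 1439, 1443 and 1479 in DMSO, 1849, 1946 and 1729 in DSF, 1629, 1649 and 881 in NSM, and 1968, 1930 and 1883 in DSF+NSM. All DSF and DSF+NSM libraries were above DMSO, and NSM replicate 3 was the lowest of all 12. Against DMSO the changes of 0.34 ± 0.20 in DSF and 0.41 ± 0.20 in DSF+NSM were not called (adjusted p = 0.255 and 0.0999). Without NSM replicate 3 the same changes had an SE of 0.08 and were called (0.00237 and 0.000222). On the scale of equal sums, DSF+NSM lay below DMSO, by −0.38 (0.117). DSF+NSM exceeded NSM by 0.53 ± 0.20 (0.0485), a call that was lost when any DMSO, DSF or DSF+NSM library was left out (0.0644 to 0.119). Without NSM replicate 3 that difference was called but smaller, at 0.23 ± 0.08 (0.0330).

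DBT, the E2 of the branched-chain complex, had counts of 179, 196 and 329 in DMSO, 234, 249 and 183 in DSF, 205, 256 and 290 in NSM, and 369, 252 and 265 in DSF+NSM. The groups overlapped DMSO in every case, and the 95% limits of its log2 change were −0.58 and 0.50 in DSF, −0.41 and 0.67 in NSM, and −0.18 and 0.90 in DSF+NSM. The change in DSF+NSM was −0.42 with equal sums. DMSO replicate 3 stood above the other DMSO libraries, and without it the DSF+NSM difference was 0.63 (adjusted p = 0.0456). Of the 3 genes for E2 subunits, DLAT was thus called lower in NSM and DSF+NSM, and DLST and DBT were called in no comparison with DMSO over the 12 libraries.

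PDHA1 and PDHB encode the alpha and beta subunits of the E1 that decarboxylates pyruvate. PDHA1 was called in NSM and PDHB was not; the difference between the pair was not tested. PDHA1 stood at 1632, 1738 and 1628 in DMSO, 1492, 1405 and 1586 in DSF, 1094, 1115 and 1169 in NSM, and 1573, 1571 and 1130 in DSF+NSM. The 3 NSM libraries lay close together and below all DMSO and DSF libraries, and DSF+NSM replicate 3 lay with them. PDHA1 fell in NSM by −0.57 ± 0.14 (adjusted p = 0.00446), a call that held when any 1 library was left out. DSF+NSM exceeded NSM by 0.32 ± 0.14 (0.0780), which was called without NSM replicate 3 (0.35, 0.0325) or DSF+NSM replicate 3 (0.48, 0.00518) and was −0.19 with equal sums. PDHB stood at 919, 876 and 846 in DMSO, 709, 726 and 730 in DSF, 772, 866 and 899 in NSM, and 850, 814 and 947 in DSF+NSM. PDHB changed by −0.06 ± 0.12 in NSM (0.696), with 95% limits of −0.31 and 0.19. It was lowest in DSF, with all 3 libraries below all others, at −0.29 ± 0.12 against DMSO (0.110, not called). The ratio of PDHA1 to PDHB was 1.90 ± 0.107 in DMSO, 2.07 ± 0.121 with DSF, 1.33 ± 0.0716 with NSM and 1.66 ± 0.404 with both drugs (SD, n = 3).

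**Figure D3:**
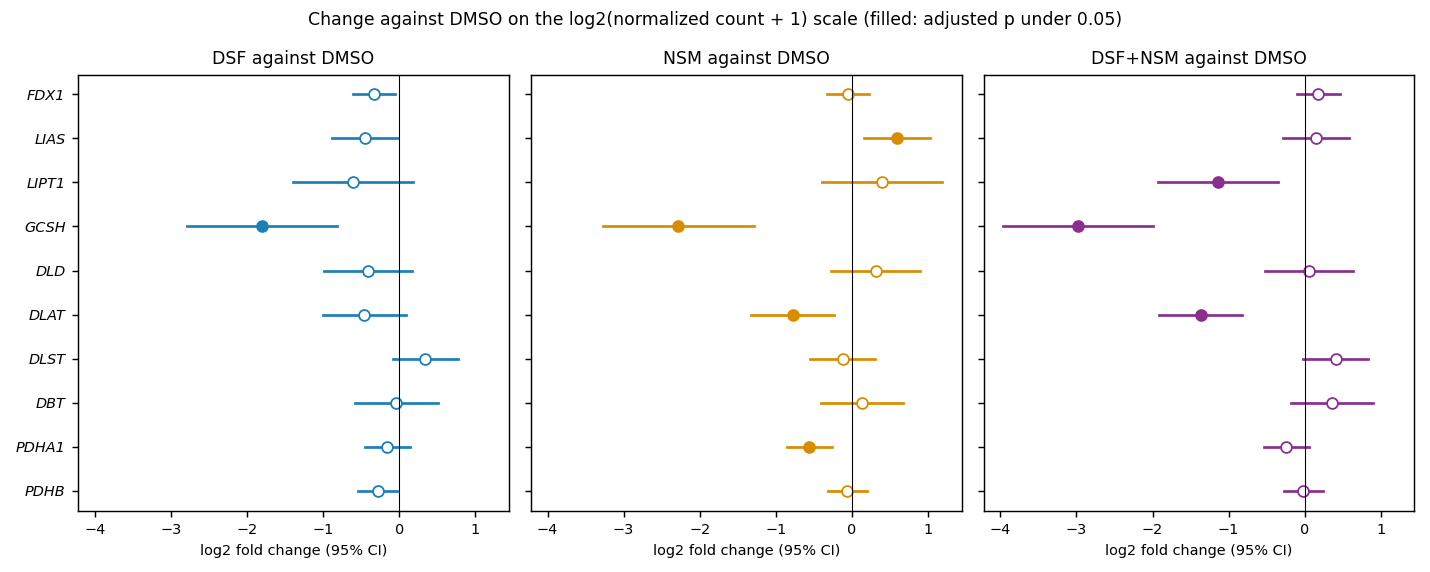
Log2 fold change against DMSO (horizontal axes, log2 of normalized count + 1) with 95% confidence interval for each gene in DSF, NSM and DSF+NSM, from 1 fit of 12 libraries. Filled points passed an adjusted p of 0.05; GCSH is filled in all 3 panels, at −1.80, −2.28 and −2.98.

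Counted over the 10 genes, DSF called 1 gene, GCSH, lower, where 17.8% of all genes tested were called and 5.95% were called lower. NSM called 4, of which GCSH, DLAT and PDHA1 were lower and LIAS was higher, where 49.1% of all genes were called, 25.4% higher and 23.7% lower. DSF+NSM called 3, GCSH, DLAT and LIPT1, all lower, where 52.8% of all genes were called, 28.3% higher and 24.5% lower. The share of the 10 genes called was thus below that of all genes in these 3 comparisons. Against DSF, DSF+NSM was called for 3 (FDX1 and LIAS higher, DLAT lower), where 43.1% of all genes were called, 21.7% higher and 21.4% lower. Against NSM it was called for 2 (LIPT1 lower, DLST higher), where 38.6% were called, 20.3% higher and 18.3% lower. The interaction called 1 of 10, where 26.1% of all genes were called, 12.1% above 0 and 14% below. Groups did not overlap for 3 of the 10 genes in NSM and 6 in DSF+NSM against DMSO (57% and 69.3% of all genes), and for 7 against DSF and 4 against NSM (62.4% and 41.5%). All comparisons with DMSO share its 3 libraries. With every library scaled to the same sum, the median of all genes shifted to −0.25 in NSM and −0.75 in DSF+NSM, against 0.01 and 0.03 otherwise. The calls in DSF+NSM were then 8, again all lower, where 67.5% of all genes were called, and FDX1, LIAS, DLD, DLST and DBT changed sign.

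The DSF comparison depended on a library outside it. In DSF 7 of the 10 genes (FDX1, LIAS, GCSH, DLD, DLAT, PDHA1 and PDHB) had all 3 libraries below all 3 DMSO libraries and DLST had all 3 above, where 60.9% of all genes did not overlap. The median change of the 10 was −0.37, against 0.05 over all genes. In the fit of 12 libraries the SE takes in the spread of NSM, which NSM replicate 3 widened. Without that library 7 genes were called in DSF, with FDX1, LIAS, GCSH, DLD, DLAT and PDHB lower and DLST higher, and the background, the share of all genes called, rose to 41.2%. When the fit held DMSO and DSF alone 8 were called, LIPT1 being added, where the background was 56%. The fold changes themselves are the same in all 3 fits. FDX1, for example, was lower by −0.33 with adjusted p = 0.0933, 0.0187 and 0.00496 in turn. Without the 2 libraries with B-lineage transcripts, GCSH was still the 1 gene called in DSF (14.6% of all genes), and DLAT was no longer called in NSM (−0.59, adjusted p = 0.104), where 45.2% of all genes were. DLST against NSM and FDX1 in the interaction also lost their calls (0.0637 and 0.140).

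**Figure D4:**
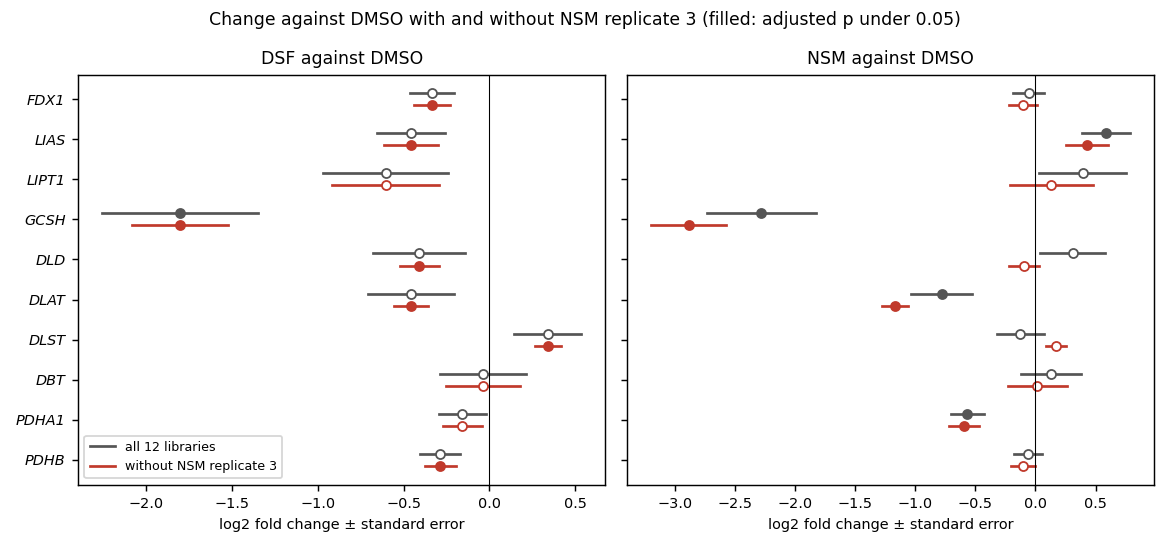
Log2 fold change ± SE against DMSO (horizontal axes) for the 10 genes in DSF and NSM, with all 12 libraries and without NSM replicate 3; filled points passed an adjusted p of 0.05. In DSF the points do not move and the bars shorten, which takes the calls from 1 to 7, and in NSM the fall of DLAT goes from −0.78 to −1.17.

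Without NSM replicate 3, DSF+NSM was called against DMSO for 4 genes, DLST being added (0.41), where 67.8% of all genes were called. Against DSF it was called for 6 (background 60.2%), with FDX1, LIAS, DLD and PDHB higher and GCSH and DLAT lower. The interaction was then called for FDX1 (0.61), GCSH (1.71), DLD (0.56), PDHA1 (0.51) and PDHB (0.37), all above 0, where 45.8% of all genes were called. For GCSH a value above 0 means that the fall with both drugs was smaller than the sum of the 2 falls. In NSM the same 4 genes were called with and without that library (background 59.9% without it). Against NSM, DSF+NSM was then called for LIPT1, DLST and PDHA1 (background 49.2%).

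Per kilobase of the canonical transcript, PDHB was highest in DMSO (584 ± 24.4 normalized counts per kilobase, SD, n = 3). It was followed by DLST (517) and PDHA1 (498), whose libraries overlapped, and then by DLD (357), DLAT (266), GCSH (203) and FDX1 (146). LIPT1 (98.7) and LIAS (92.0) overlapped, and DBT (21.8) was last. In DSF+NSM DLST came first (685), ahead of PDHB (578). There DLAT (103) had fallen to the level of LIAS (102), below FDX1 (166), and GCSH (25.5) overlapped DBT (27.4) at the bottom. These ranks depend on the length used. PDHB has 1507 bases in its canonical transcript and 4717 in all its annotated exons, and PDHA1 has 3349 and 4953. Ranks by exon length were not computed. Whether overlapping genes or pseudogenes took reads from these genes was not tested. The 10 genes together held 0.0545% to 0.0550% of the summed normalized count in DMSO, 0.0442% to 0.0450% in DSF, 0.0356% to 0.0489% in NSM and 0.0282% to 0.0318% in DSF+NSM. Their own sum was 7612 to 7842 in DMSO, 6709 to 6800 in DSF, 6244 to 8474 in NSM and 7093 to 7402 in DSF+NSM. The sum of all genes was 14.0 to 14.4 M in DMSO and 22.7 to 25.6 M in DSF+NSM. The lower share in DSF+NSM thus came mostly from the larger total.

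Across the 12 libraries, GCSH and DLAT were the pair of the 10 with the highest Pearson correlation of log2 values (r = 0.911), and DLST ran against DLD (r = −0.785) and LIPT1 (r = −0.781). The libraries share their 4 groups and NSM replicate 3, so these values are descriptions. Among 10794 genes, the pattern of GCSH was most like those of SEPT2 (r = 0.986), WRB (0.984) and API5 (0.977). That of DLAT was most like CDC7 (0.989), SCD5 (0.988) and INTS2 (0.987), and ZNF566 (0.938) and FAM220A (0.936) were among those most like LIPT1.

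Of 10 genes tested that supply lipoate upstream, 2 were called lower with DSF, 5 with NSM and 5 with both drugs, and none higher. Of all genes 17.8%, 49.1% and 52.8% were called in either direction and 5.95%, 23.7% and 24.5% lower, shares that also apply to the lists that follow. The lipoate supply genes had a median of −0.57 in DSF+NSM against 0.03 over all genes. AASDHPPT, which arms the acyl carrier protein, fell in all 3, by −1.13, −0.74 and −1.83 in that order. Its normalized counts went from 825, 883 and 781 in DMSO to 238, 168 and 313 in DSF+NSM. LIPT2, the octanoyl transferase that starts lipoylation, fell by −1.71 in DSF+NSM (adjusted p = 0.000351). It went from 32.7, 40.8 and 46.1 in DMSO to 8.75, 10.8 and 15.5, a level of few reads. These counts also moved with NSM replicate 3: without it 4, 5 and 8 were called lower in DSF, NSM and DSF+NSM, and 1 was called higher in NSM, where 41.2%, 59.9% and 67.8% of all genes were called. Leaving out the 2 libraries with B-lineage transcripts gave 2, 4 and 5, all lower.

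Of the 8 other subunits of these complexes tested, 1 was called higher and 1 lower in DSF and in NSM, and 1 higher and 2 lower in DSF+NSM. BCKDHB, the E1 beta subunit of the branched-chain complex that DBT belongs to, fell by −1.83 in NSM and −1.0 in DSF+NSM. DHTKD1, the E1 of 2-oxoadipate dehydrogenase, fell by −0.69 in DSF+NSM only among the comparisons with DMSO, from 184, 191 and 182 to 126, 122 and 97.7. GLDC, the glycine decarboxylase that works with the H protein, was called higher in DSF+NSM (2.05, adjusted p = 0.0333) at normalized counts of 14.0, 10.8 and 11.1, against 1.77, 4.53 and 0.98 in DMSO, so at a level of few reads. Of 8 kinases and phosphatases of the complexes, 1 was called lower in DSF, 3 lower and 1 higher in NSM, and 3 lower and 2 higher in DSF+NSM. BCKDK and PDK3, kinases that switch the branched-chain and pyruvate complexes off, fell by −1.22 each in DSF+NSM, whereas PPM1K and PDP2, phosphatases that switch them on, rose by 0.61 and 0.43. With every library scaled to the same sum, 6 subunits and 6 of these enzymes were called lower in DSF+NSM and none higher, so the rises of PPM1K and PDP2 were not called under that scaling, where GLDC did not pass the filter on low values and was not tested. Leaving out NSM replicate 3 gave 2 subunits higher and 2 lower in DSF and in DSF+NSM and 3 higher and 1 lower in NSM, and, of the kinases and phosphatases, 1 higher and 3 lower in DSF, 1 and 4 in NSM, and 2 and 5 in DSF+NSM. Leaving out the 2 libraries with B-lineage transcripts, 7 subunits were tested and none was called higher in DSF+NSM. GLDC again did not pass the filter and was not among the 7. The kinases and phosphatases then had 2 higher and 2 lower in NSM and 1 higher and 2 lower in DSF+NSM.

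Of 16 genes that assemble iron-sulfur clusters, on which LIAS depends, 2 were called lower in DSF, 8 lower and 4 higher in NSM, and 5 lower and 4 higher in DSF+NSM. NUBPL, an assembly factor for complex I, changed by −1.21 in DSF+NSM and was called lower. HSCB and HSPA9, the chaperones that hand clusters on, rose by 1.32 and 1.0. With every library scaled to the same sum, 11 of the 16 were called lower and none higher in DSF+NSM. Leaving out NSM replicate 3 gave 3 lower in DSF, 5 higher and 7 lower in NSM, and 6 higher and 7 lower in DSF+NSM. Leaving out the 2 libraries with B-lineage transcripts gave 1 lower in DSF, 3 higher and 7 lower in NSM, and 3 higher and 5 lower in DSF+NSM. Of 7 proteins that carry such clusters, 1 was called higher in DSF and in DSF+NSM, and in NSM 1 rose and 1 fell. Without NSM replicate 3, 4 were called higher and 1 lower in NSM, and 2 higher and 1 lower in DSF+NSM, and without the B-lineage libraries none rose in NSM. With equal sums 5 of the 7 were called lower in DSF+NSM and none higher.

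**Figure D5:**
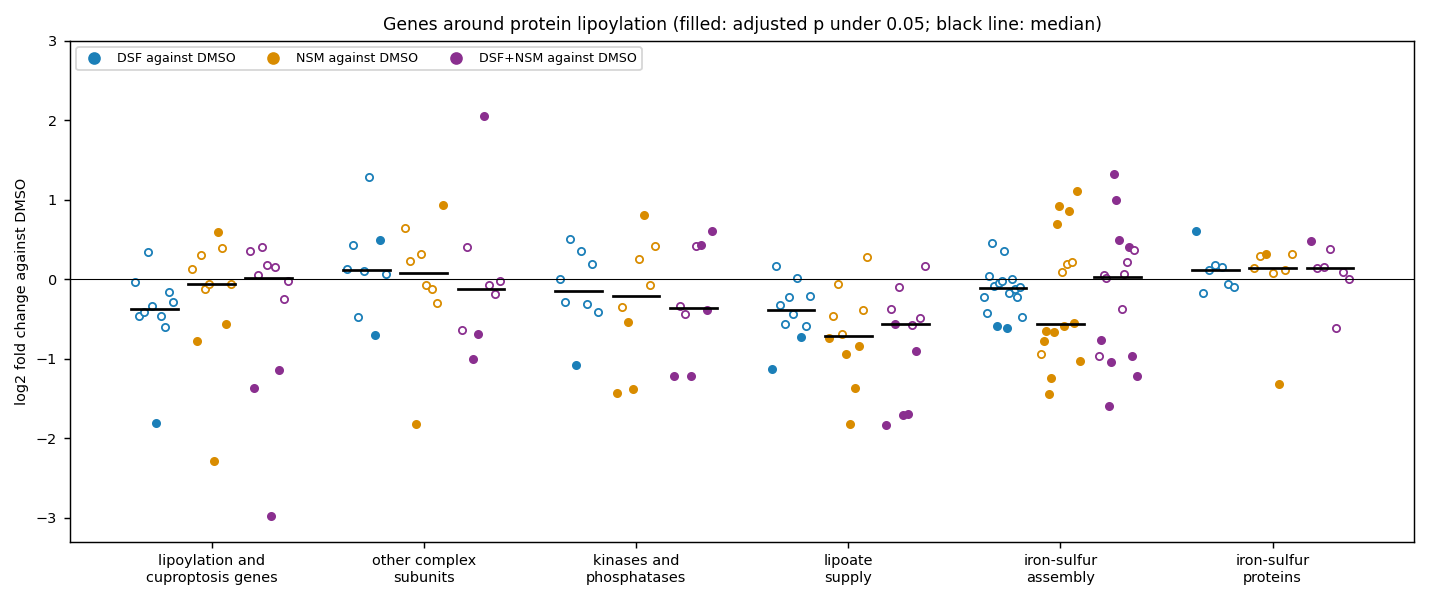
Log2 fold change against DMSO (vertical axis) of each tested gene in 6 lists around protein lipoylation, for DSF, NSM and DSF+NSM; filled points passed an adjusted p of 0.05 and black lines are medians. In the lipoate supply list all filled points lie below 0, and in iron-sulfur assembly they lie on both sides in NSM and DSF+NSM.

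MTF1, the metal-responsive transcription factor that screens for copper-induced death have linked to it, rose by 0.59 with DSF, 0.61 with NSM and 1.08 with both drugs. CDKN2A was listed at 0 in 10 of the 12 libraries and at 62.5 and 11.2 in the 2 libraries with B-lineage transcripts. Copper handling genes (15 tested) were called higher for 4 in DSF, and for 4 higher and 3 lower in NSM. In DSF+NSM 7 were called higher and 1, the copper chaperone SCO1, lower (−1.41). Leaving out NSM replicate 3 gave 4 higher and 1 lower in DSF, 7 and 3 in NSM, and 7 and 2 in DSF+NSM. Of 14 tested without the B-lineage libraries, 4 were higher and 2 lower in NSM and 6 higher and 2 lower in DSF+NSM. On the scale of equal sums, 4 of 14 tested were called higher and 8 lower in DSF+NSM, so the balance of these genes changed with the scaling. The metallothionein MT1X, which binds excess copper and zinc, went from 131, 118 and 110 in DMSO to 19096, 26720 and 20782 in DSF, a log2 change of 7.51, and rose by 1.86 in NSM and 10.27 in DSF+NSM. Its NSM libraries stood at 426, 352 and 552, all below every library of both DSF groups. The uptake transporter SLC31A1 rose by 0.60 in NSM and 0.88 in DSF+NSM. The heat shock gene HSPA1A rose by 5.19 in DSF and 9.74 in DSF+NSM and fell by 2.16 on the log2 scale in NSM. GCSH, by contrast, was lower in all 3 groups.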

How the data were processed

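RNA of 12 SHI-1 libraries was analysed. According to the study's methods, the authors selected mRNA on dT beads, prepared TruSeq libraries, trimmed reads with trimmomatic and quantified genes with STAR and Salmon on GRCh38, whereas the submitters' processing notes name bcl2fastq 2.19, Trimmomatic, Bowtie2, Picard and featureCounts on hg38. For every library the authors deposited 1 file with a normalized count for each gene, a signal scaled over 24 libraries. Only 28.7% to 30.9% of nonzero values were whole multiples of a library's step (tolerance 0.001), so reads were not recovered, no count model was fitted and depth is an estimate.

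The test used log2(value + 1) and kept each gene that reached 10 in 3 or more libraries. Group means were fitted in 1 model of 12 libraries with limma 3.58.1 (limma-trend, robust empirical Bayes) in R 4.3.3, and p-values were adjusted by Benjamini-Hochberg over all 13502 genes. Positions came from GENCODE 44 and promoter sequence from RefSeq (GRCh38.p14), with a window matched for all 10 genes. Figures were drawn with matplotlib 3.10.9.

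The members and lists were chosen with earlier results of these data known. All 10 members are named, and of other lists the largest called rises and falls in DSF+NSM, with any called gene of the copper, heat shock and screen lists. Numbers of replicates were not used to pair the libraries in the main fit. Of 18 same-numbered pairs 2 had a correlation of deviations over 0.1, the highest being 0.278 for NSM and DSF+NSM replicates 3. The median was 0.057 for same-numbered pairs and −0.026 for the others. Whether same-numbered libraries came from the same experiment is not given in the sources used here. Alternatives were 3 rescalings, pseudocounts of 0.1 and 10, 2 filters, only the groups compared, library weights, the replicate number as a block, and each library left out in turn. Leaving out both libraries with B-lineage transcripts was chosen after seeing the data. Values of a few genes that the naming rule covers are not reported here.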

Additional observations from a re-analysis of the deposited data

Results flagged for a closer look

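The change with both drugs differed from the sum of the changes with each drug, by the interaction term of the same limma fit, for FDX1 among the 10 genes and for 14 genes of the lists around them. Of all genes 26.1% were called in the interaction. By list, the calls were 3 of 8 other subunits, 1 of 8 kinases and phosphatases, 1 of 10 lipoate supply and 2 of 16 iron-sulfur assembly genes. A further 3 of 15 copper handling and 4 of 4 heat shock genes were called, with 0 of 7 iron-sulfur proteins and 0 of 2 screen genes. FDX1 had an interaction of 0.57 on the log2 scale (adjusted p = 0.0367), and its DSF+NSM libraries were above its DSF libraries in 3 of 3. Without both libraries with B-lineage transcripts it was 0.52 and was not called (0.140).

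Among complex subunits and their kinases, BCKDHB (1.31, adjusted p = 0.00367), PDK3 (1.24, 0.0117) and MRPS36 (0.75, 0.0397) had values above 0, and DHTKD1 (−1.12, 0.00233) one below. NDUFAB1, the acyl carrier protein, had 0.67 (0.0310). Of the iron-sulfur assembly genes, ISCA1 had 0.82 (0.0379) and ISCU, the scaffold protein, −0.65 (0.0172). Without both libraries with B-lineage transcripts no lipoate supply gene and no iron-sulfur assembly gene was called in the interaction. In that fit 2 complex subunits and 1 kinase or phosphatase were called, where 16.8% of all genes were.

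The remaining interactions were those of metallothioneins and heat shock genes. They were 4.02 for MT1G, 0.89 for MT1X and 2.03 for MT2A, and 6.71 for HSPA1A, 6.11 for HSPA1B, 4.68 for DNAJB1 and 5.56 for HSPH1, each called at an adjusted p of 0.0156 or lower. Without both libraries with B-lineage transcripts, 2 of 14 copper handling genes tested were called, both above 0 (16.8% of all genes called). With equal sums 2 of 14 were called above 0 and 1 below (35.3% of all genes). The 4 heat shock genes were called above 0 in both fits.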

How the results depend on the processing

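Over 60 results (10 genes in 6 comparisons) and their alternatives, 1246 of 1370 values kept their direction and side of the threshold, or changed sign with no call in either fit (42 of them), 46 lost the call, 69 gained it and 9 reversed. GCSH stayed called in NSM and DSF+NSM, DLAT in DSF+NSM (also against DSF), and PDHA1 in NSM under every alternative run. So did LIPT1 in DSF+NSM against NSM.

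With every library scaled to the same sum, the calls were 2 in DSF (18.2% of all genes called), 4 in NSM (49.9%), with FDX1 gained and LIAS lost, 8 in DSF+NSM (67.5%), 6 in DSF+NSM against DSF (61%), 6 against NSM (54.6%) and 0 in the interaction (35.3%). In that scaling, where 1 or both of the values were called, DSF+NSM reversed against DMSO for FDX1 (−0.60), LIAS (−0.63) and DLD (−0.72), against DSF for FDX1 (−0.17), LIAS (−0.076), DLST (−0.62) and PDHB (−0.42), and against NSM for PDHB (−0.47). With no call in either fit, it also changed sign against DMSO for DLST and DBT, against DSF for DLD (−0.22) and DBT (−0.28), and against NSM for FDX1 (−0.28), PDHA1 (−0.19) and DBT (−0.28). Library weights, whose estimate did not converge and which gave NSM replicate 2 a weight of 32.8 and NSM replicate 3 one of 0.0233, called 9 in DSF (60.5% of all genes), 5 in NSM (82.3%), 6 in DSF+NSM (75%), 7 against DSF (67.5%), 7 against NSM (72.4%) and 6 in the interaction (66.2%). With them DLST reversed in NSM (0.18). With only the groups compared the calls were 8 in DSF (56%), 3 in NSM (39.5%), where DLAT was lost (adjusted p = 0.0945), 4 in DSF+NSM (64.8%), 6 in DSF+NSM against DSF (55.5%) and 1 against NSM (19.1%), and the interaction was not run. Against NSM the call of DLST was also lost, leaving 1, with a trimmed mean rescaling, a pseudocount of 0.1, no filter or without both libraries with B-lineage transcripts, which left 0 in the interaction. The replicate block, which treats same-numbered libraries as paired although the labels do not state this, left 0 in the interaction (FDX1, adjusted p = 0.0552) and changed no other count.

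Leaving out 1 library gave 0 to 7 calls in DSF, 2 to 4 in NSM, 2 to 4 in DSF+NSM, 2 to 6 in DSF+NSM against DSF, 1 to 4 against NSM and 0 to 5 in the interaction. The share of all genes called also moved, over 6.77% to 41.2%, 40.2% to 59.9%, 44.3% to 67.8%, 34.6% to 60.2%, 27.3% to 49.2% and 19.3% to 45.8% in that order. That share was highest without NSM replicate 3 in every comparison. The highest count came without NSM replicate 3 in DSF, DSF+NSM against DSF and the interaction. The cause of changes under rescaling was not tested. Depth per library is an estimate, and LIPT1 had the lowest normalized counts of the 10 in DMSO.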
